A study of Saccharomyces cerevisiae with 16 samples.

Results

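Transcripts of the enzymes that take glucose to ethanol and acetate in budding yeast, Saccharomyces cerevisiae, were followed during a benomyl time course. They are 32 genes, chosen by name for the reaction they catalyse, with earlier results of these data known. They comprise the hexose kinases, the glycolytic enzymes down to pyruvate kinase, the pyruvate decarboxylases and the alcohol dehydrogenases. The acetaldehyde dehydrogenases and acetyl-CoA synthetases that make and activate acetate complete the list. Each of the 32 genes was found once among the 6338 probes, by its current or array symbol. They are thus 32 of the 6321 genes and unnamed probes examined.

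The study followed the transcript response to benomyl, an antimitotic drug that depolymerises microtubules, on 16 two-colour arrays of total RNA. A wild-type strain (WT) was sampled 30 s and 2, 4, 10, 20 and 40 min after the drug was added (6 arrays). A strain lacking YAP1, the gene of the oxidative stress and drug response activator Yap1, and a strain lacking PDR1, the gene of the drug efflux pump activator Pdr1, were each sampled at 30 s and 2, 4, 10 and 20 min (5 arrays each). On every array the drug-treated cells of a strain were labelled against the same strain without drug. No array was repeated at a given strain and time, and the labels used here give neither the strain background nor the drug concentration.

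Every value below is a log2 ratio of drug-treated over untreated cells, so 1 stands for a doubling and -1 for a fall to 50 percent. The direction follows the channel order of the labels, since the dyes are not stated, and the log base is taken as 2. Each array is centred near 0, so a change shared by all transcripts cannot be seen. As a check of the labels, FLR1, a transporter gene under Yap1, reached 5.48 in WT and 6.15 in the PDR1 deletion but stayed between -0.20 and 0.13 in the YAP1 deletion. PDR5, an efflux pump gene under Pdr1, stood between 0.21 and 1.53 in WT from 2 to 20 min and between 0.08 and 0.29 in the PDR1 deletion, although SNQ2, another Pdr1 target, reached 2.13 there. Between 3450 and 6128 probes had a value per array, fewest on the PDR1 deletion array at 2 min.

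Glycolysis splits 1 hexose into 2 pyruvates with a net gain of ATP. On glucose, yeast ferments most pyruvate: pyruvate decarboxylase yields acetaldehyde, and alcohol dehydrogenase reduces it to ethanol, which restores NAD. A side branch oxidises acetaldehyde to acetate and, through acetyl-CoA synthetase, supplies acetyl-CoA, and the cytosolic acetaldehyde dehydrogenase Ald6 is also a source of NADPH, the reductant that peroxide and thiol defences draw on. Most steps have a major isoenzyme, highly expressed on glucose, and 1 or more minor ones, many of them repressed by glucose or tied to stress.

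Some features of the arrays touch the results that follow. On the PDR1 deletion arrays 587 features (9.3%) never had a value, against 46 (0.7%) in WT and 149 (2.4%) in the YAP1 deletion. Of the 32 genes, 7 were among them: HXK1, HXK2, PFK1, PGK1, ENO1, ENO2 and PDC6 have no ratio in the PDR1 deletion. The WT arrays at 20 and 40 min and the YAP1 deletion array at 20 min had values for 348 features, PDC1 and PFK2 among them, that no other WT or YAP1 deletion array reported. Those 3 arrays were also the ones with the highest median ratio of the 32 genes. In WT and the YAP1 deletion, late times and the kind of array thus cannot be told apart. The PDR1 deletion array at 20 min held PDC1 and PFK2 too. In which features had a value, it matched WT at 20 min on 80.57% of features and WT at 10 min on 72.05%. WT and the YAP1 deletion at 20 min matched each other on 93.69%, so the kind of array was not separated from the strain at 20 min. WT and YAP1 deletion values at 2, 4 and 10 min come from arrays without that pattern. The PDR1 deletion arrays at those times did hold values of PDC1 and PFK2. In which features had a value, the PDR1 deletion array at 10 min matched WT at 20 min on 85.0% of features and WT at 10 min on 75.87%. The array at 4 min matched WT at 20 min on 81.57% and WT at 4 min on 76.08%. At 2 min, where it had the fewest values, the match was 61.11% with WT at 20 min and 61.94% with WT at 2 min. The kind of array was thus not separated from the strain in comparisons with the PDR1 deletion at these times either. Transcripts of TDH1, TDH2 and TDH3, of ENO1 and ENO2, of ADH1 and ADH2, and of PDC1 and PDC5 are close to each other in sequence, and what a probe takes up from a paralogue was not tested.

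Most of these transcripts stayed within 2-fold of their untreated level on most arrays. The genes that went past 2-fold on at least 1 array were ALD4, ALD5, ALD6, ADH5, HXK1, GLK1, TDH1 and, downwards, FBA1. In WT the median log2 ratio of the genes with a value was -0.02 (30 s), -0.07 (2 min), 0.09 (4 min), 0.09 (10 min), 0.32 (20 min) and 0.45 (40 min). In the YAP1 deletion it was 0.06, 0.03, 0.02, 0.06 and 0.23 at 30 s, 2, 4, 10 and 20 min. In the PDR1 deletion it was -0.03, -0.06, -0.07, -0.16 and -0.21 at the same times. The median thus stood above 0 late in WT and below 0 late in the PDR1 deletion. At 20 min 5 of 31 genes lay below 0 in WT, 6 of 32 in the YAP1 deletion and 17 of 25 in the PDR1 deletion.

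**Figure D1:**
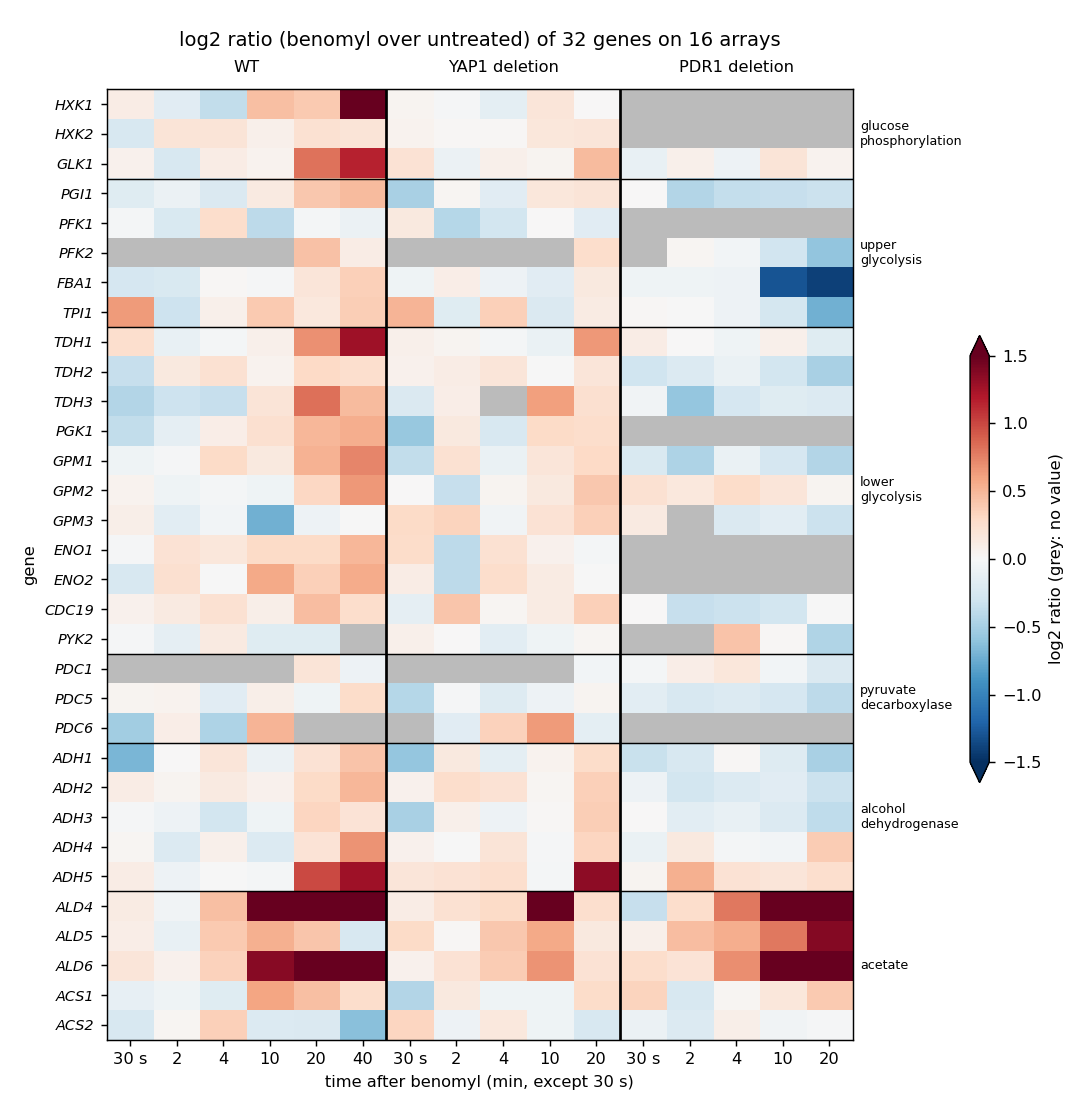
Log2 ratio (benomyl over untreated, colour scale cut at -1.5 and 1.5) of the 32 genes (rows, grouped by reaction) on the 16 arrays (columns, by strain and time; grey marks no value). ALD4 and ALD6 stand out in red from 10 min in WT and the PDR1 deletion, and FBA1 in blue at 10 and 20 min in the PDR1 deletion.

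A gene's response in a strain was taken as its mean log2 ratio over 2, 4, 10 and 20 min, tested in limma with time as a block, with p-values adjusted over the 4324 features that had at least 3 of the 4 values in each strain. The times are successive points of 1 course and not biological repeats. The 3 strains shared 1 estimate of the spread per gene, taken after the time effect was removed. The p-values thus rest on how far the strains depart from a common time course. They do not measure the spread between repeats or between the times of a strain. Leaving out an array of 1 strain can therefore change the call in another strain at an unchanged value. Of the 32 genes 23 could be tested; PDC1 and PFK2 and the 7 without PDR1 deletion values could not. In WT 1 of 23 rose, ALD4, where 2.61% of all features rose, and none fell, where 1.55% of all features fell. At an unadjusted limma p under 0.05 stood 7 of the 23, against 854 of the 4324 features. In the YAP1 deletion none changed, where 0.116% of all features did (4 of 23 at an unadjusted limma p under 0.05, against 416 of the 4324 features). In the PDR1 deletion 3 rose, ALD4, ALD5 and ALD6, where 2.8% of all features rose, and 3 fell, PGI1, FBA1 and PDC5, where 2.71% of all features fell. There 13 of 23 had an unadjusted limma p under 0.05, against 1029 of the 4324 features. The median response of the 23 genes was 0.09 in WT, 0.13 in the YAP1 deletion and -0.20 in the PDR1 deletion, against -0.04, -0.02 and -0.01 over all features tested.

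The acetaldehyde dehydrogenases, which oxidise acetaldehyde to acetate, included the gene with the highest ratio of the 32, ALD4. It encodes the main mitochondrial enzyme, ALD6 the main cytosolic one, and ALD5 a minor mitochondrial one. The WT log2 ratio of ALD4 was 0.12 (30 s), -0.06 (2 min), 0.46 (4 min), 2.65 (10 min), 4.08 (20 min) and 4.27 (40 min). Without Yap1 it was 0.11 (30 s), 0.23 (2 min), 0.28 (4 min), 1.65 (10 min) and 0.25 (20 min). Without Pdr1 it was -0.34 (30 s), 0.27 (2 min), 0.79 (4 min), 2.47 (10 min) and 3.81 (20 min). ALD4 was thus below 1 up to 4 min in each strain, went past 1 at 10 min in all 3, and stayed high at 20 min in WT and the PDR1 deletion but not in the YAP1 deletion.

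Each SE given here came from the spread that the 3 strains share, after the time effect was removed. Without time as a block, the SE of the ALD4 response in WT was 0.594. The mean response of ALD4 over 4 arrays was 1.78 ± 0.36 (SE) in WT, a 3.44-fold rise (limma, adjusted p = 0.0168). It was 1.84 ± 0.36 in the PDR1 deletion, a 3.57-fold rise (limma, adjusted p = 0.0142). In the YAP1 deletion it was 0.60 ± 0.36 and did not pass (adjusted p = 0.624), but it was 1.43 and passed without that strain's array at 20 min (adjusted p = 0.00207). On that array PDR5, another drug-response gene, stood at 0.001, after 2.24 at 10 min, while ADH5 stood at 1.34 and TDH1 at 0.655. What set the ALD4 value on that array was not tested. The WT call was lost without the 10 min arrays (adjusted p = 0.169), without the WT array at 10 min (0.0972) or 20 min (0.14), and where time was not a block (0.157). The PDR1 deletion call was lost without that strain's array at 2, 4, 10 or 20 min (adjusted p = 0.0519, 0.0577, 0.067 and 0.101), without all arrays at 4 or 10 min (0.0514 and 0.145) and where time was not a block (0.0973). At 10 and 20 min the YAP1 deletion minus WT difference of ALD4 was -2.42 ± 0.51, a 5.34-fold lower ratio (limma with a strain by phase term, adjusted p = 0.0455); ALD4 was the 1 of 23 that was lower there, where 1.27% of the features tested were. This difference was -1.03 without the YAP1 deletion array at 20 min (adjusted p = 0.1), -1.69 without the WT array at 20 min (adjusted p = 0.33), and -3.81 and called without the YAP1 deletion array at 10 min. Leaving out the WT, YAP1 deletion or PDR1 deletion array at 2 or 4 min also ended the call, at an unchanged value of -2.42 (adjusted p between 0.0619 and 0.113). With the arrays scaled to a common spread the difference was -1.43 (adjusted p = 0.24). Over 2 to 20 min the YAP1 deletion minus WT difference of ALD4, -1.18 ± 0.51, did not pass (adjusted p = 0.524).

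ALD6 had a smaller range than ALD4. Its log2 ratio in WT was 0.19 (30 s), 0.06 (2 min), 0.34 (4 min), 1.37 (10 min), 1.53 (20 min) and 1.59 (40 min). Without Yap1 the ALD6 values were 0.06 (30 s), 0.22 (2 min), 0.38 (4 min), 0.67 (10 min) and 0.22 (20 min). Without Pdr1 they were 0.26 (30 s), 0.20 (2 min), 0.70 (4 min), 1.77 (10 min) and 2.96 (20 min). From 4 min on the PDR1 deletion was above WT at each shared time, and the YAP1 deletion was below both at 10 and 20 min. The mean response was 1.41 ± 0.23 in the PDR1 deletion, a 2.65-fold rise (limma, adjusted p = 0.00482; 0.0858 without the 10 min arrays). It was 0.83 ± 0.23 in WT, which did not pass (limma, adjusted p = 0.0641). With the arrays of WT and the YAP1 deletion fitted alone, a choice made after seeing the data, ALD6 was the 1 of 30 members called in WT (0.83 ± 0.16, adjusted p = 0.0319), where 4.39% of all features were, and ALD4 was not (1.78 ± 0.41, adjusted p = 0.051). The WT response of ALD6 also passed when all 2 min arrays, or the array of the YAP1 deletion at 2 or 20 min, or that of the PDR1 deletion at 20 min, were left out. The differences of the PDR1 deletion from WT, 0.58 ± 0.32, and of the YAP1 deletion from WT at 10 and 20 min, -1.01 ± 0.29, did not pass (limma, adjusted p = 0.184 for the second). The second passed when the YAP1 deletion array at 10 min was left out (-1.57, adjusted p = 0.0468), and likewise with 1 PDR1 deletion array fewer, at 10 or at 20 min (adjusted p = 0.0185 and 0.0187).

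ALD5 was highest in the PDR1 deletion. Its log2 ratio there was 0.08 (30 s), 0.46 (2 min), 0.54 (4 min), 0.79 (10 min) and 1.38 (20 min). ALD5 in WT stood at 0.10 (30 s), -0.11 (2 min), 0.39 (4 min), 0.53 (10 min), 0.42 (20 min) and -0.24 (40 min). ALD5 in the YAP1 deletion stood at 0.29 (30 s), 0.02 (2 min), 0.40 (4 min), 0.57 (10 min) and 0.15 (20 min). The PDR1 deletion was above WT at each shared time from 2 min, and the WT array at 40 min was below 0. The response was 0.79 ± 0.11 in the PDR1 deletion, a 1.73-fold rise (limma, adjusted p = 0.00251), and this call held in 22 of 22 alternative settings. It was 0.31 in WT (adjusted p = 0.149; 0.0387 without the PDR1 deletion array at 20 min). The PDR1 deletion minus WT difference of 0.49 ± 0.16 did not pass (limma, adjusted p = 0.217).

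The acetyl-CoA synthetases, which activate acetate, did not follow the dehydrogenases. ACS2, the major form on glucose, had ratios of -0.24 (30 s), 0.03 (2 min), 0.36 (4 min), -0.20 (10 min), -0.22 (20 min) and -0.62 (40 min) in WT. Its values were 0.33 (30 s), -0.07 (2 min), 0.16 (4 min), -0.07 (10 min) and -0.24 (20 min) in the YAP1 deletion. ACS2 in the PDR1 deletion lay between -0.20 and 0.09. The lowest value was that of WT at 40 min, and values of both signs occurred in each strain. ACS1, the glucose-repressed form, lay between -0.44 and 0.59 over the 16 arrays. Neither gene passed in any comparison.

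**Figure D2:**
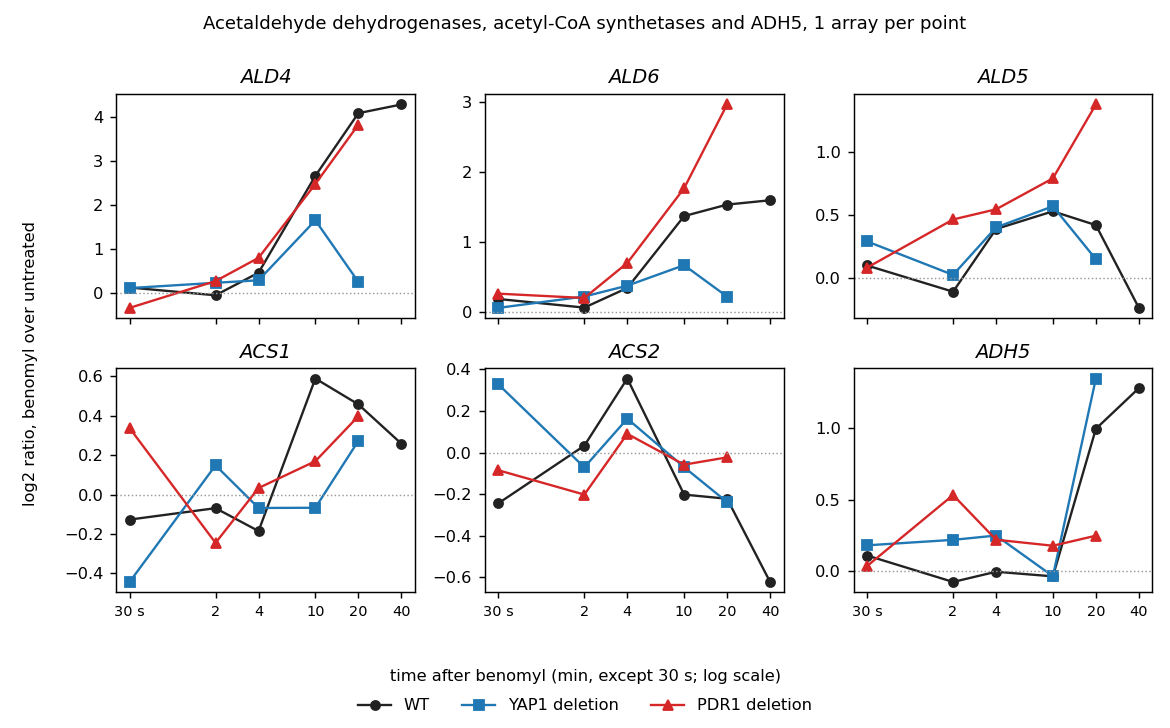
Log2 ratio (benomyl over untreated) against time (log scale) for 6 genes, 1 array per point, in WT (black circles), the YAP1 deletion (blue squares) and the PDR1 deletion (red triangles); the vertical scales differ between panels. ALD4 reached 4.27 in WT and fell back to 0.25 at 20 min in the YAP1 deletion, while ADH5 stood above 1 on the YAP1 deletion array at 20 min and the WT array at 40 min.

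Among the alcohol dehydrogenases, which interconvert acetaldehyde and ethanol, 5 of 5 were tested and none passed in any strain or difference. ADH5, a minor enzyme, had the widest range. Its WT ratios were 0.11 (30 s), -0.07 (2 min), -0.002 (4 min), -0.03 (10 min), 0.99 (20 min) and 1.28 (40 min). Those in the YAP1 deletion were 0.18 (30 s), 0.22 (2 min), 0.25 (4 min), -0.03 (10 min) and 1.34 (20 min). Those in the PDR1 deletion were 0.04 (30 s), 0.53 (2 min), 0.22 (4 min), 0.18 (10 min) and 0.25 (20 min). ADH5 was thus high on the WT arrays at 20 and 40 min and the YAP1 deletion array at 20 min, the 3 arrays that share a pattern of values, and at most 0.53 elsewhere. Its response was 0.45 in the YAP1 deletion and 0.30 in the PDR1 deletion; the latter passed in 1 of 22 alternative settings, without the PDR1 deletion array at 20 min (limma, adjusted p = 0.018).

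ADH4, a zinc-regulated enzyme, was among the 3 lowest mean responses in WT. Its ratios there were 0.03 (30 s), -0.20 (2 min), 0.07 (4 min), -0.20 (10 min), 0.20 (20 min) and 0.67 (40 min). ADH4 in the YAP1 deletion lay between -0.01 and 0.32 and in the PDR1 deletion between -0.10 and 0.38. ADH1, the main fermentative enzyme, and ADH2, the glucose-repressed one that consumes ethanol, are close in sequence. ADH2 was above 0 on every WT and YAP1 deletion array (0.04 to 0.50 and 0.03 to 0.35) and below 0 on every PDR1 deletion array (-0.33 to -0.08). The ADH2 response of -0.24 in the PDR1 deletion did not pass (limma, adjusted p = 0.0769), nor did its difference from WT, -0.38 ± 0.10 (adjusted p = 0.161). ADH1 lay between -0.68 and 0.42 in WT, between -0.59 and 0.28 in the YAP1 deletion and between -0.49 and 0.02 in the PDR1 deletion. ADH3, the mitochondrial enzyme, stood at 0.32 in WT and -0.38 in the PDR1 deletion at 20 min, and at 0.21 in WT at 40 min.

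Hexose enters glycolysis through the hexokinases Hxk1 and Hxk2 and the glucokinase Glk1. None of them passed in the responses or strain differences. GLK1 was tested there in all strains, and HXK1 and HXK2 in the fit of the WT and YAP1 deletion arrays alone. Nor did any pass in the WT slope on log2 time. With the slope on linear minutes HXK1 and GLK1 passed (limma, adjusted p = 0.00711 and 0.0126), where 12.6% of all features did. HXK2, the main enzyme on glucose, stayed between -0.24 and 0.23 in WT and between 0.01 and 0.18 in the YAP1 deletion. HXK1, which the gene rule did not single out and which was chosen after its values were seen, was 0.11 (30 s), -0.17 (2 min), -0.37 (4 min), 0.45 (10 min), 0.39 (20 min) and 3.30 (40 min) in WT. HXK1 in the YAP1 deletion lay between -0.14 and 0.18. The WT array at 40 min was the one on which HXK1 was high, and there it exceeded HXK2 by 3.10. GLK1 went from 0.06 at 10 min to 0.81 at 20 min and 1.15 at 40 min in WT, and stood at 0.47 in the YAP1 deletion and 0.05 in the PDR1 deletion at 20 min. No deletion strain was sampled at 40 min, so whether the 40 min values of HXK1 and GLK1 need either activator was not tested.

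In upper glycolysis 3 of 5 genes were tested, and 2 fell in the PDR1 deletion, where 2.71% of all features fell. FBA1 encodes aldolase, which splits fructose 1,6-bisphosphate, and PGI1 encodes glucose-6-phosphate isomerase. FBA1 ratios in the PDR1 deletion were -0.07 (30 s), -0.06 (2 min), -0.08 (4 min), -1.30 (10 min) and -1.40 (20 min). In WT FBA1 was -0.25 (30 s), -0.22 (2 min), 0.01 (4 min), -0.01 (10 min), 0.18 (20 min) and 0.35 (40 min). FBA1 in the YAP1 deletion was -0.06 (30 s), 0.10 (2 min), -0.08 (4 min), -0.17 (10 min) and 0.14 (20 min). The PDR1 deletion arrays at 10 and 20 min lay more than 1 below every other array, and the earlier ones lay among the other strains.

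The FBA1 response in the PDR1 deletion was -0.71 ± 0.18, a 1.64-fold fall (limma, adjusted p = 0.0394). At 10 and 20 min the PDR1 deletion minus WT difference of FBA1 was -1.43 ± 0.16, a 2.70-fold lower ratio (limma with a strain by phase term, adjusted p = 0.00251); it was the 1 of 23 that was lower there, where 0.162% of the features tested were. On single arrays FBA1 was the 1 of 25 genes at least 2-fold down at 10 min in the PDR1 deletion, where 0.0909% of features were, and the 1 of 25 at 20 min, where 0.771% were. The 20 probes nearest to the FBA1 probe in probe order had a median of -0.01 and -0.08 on those arrays. The late difference was -1.39 without the WT array at 20 min (adjusted p = 0.0596) and -1.26 without the PDR1 deletion array at 20 min (adjusted p = 0.0764). The response over 2 to 20 min was less firm: it passed in 10 of 22 alternative settings, with adjusted p up to 0.261, and was -0.43 without the PDR1 deletion array at 20 min and -0.54 without that at 10 min (adjusted p = 0.203 and 0.226). Fits lacking 1 array of WT (4 or 10 min) or of the YAP1 deletion (2, 4 or 10 min) also took it past the threshold, at the same value (adjusted p between 0.0501 and 0.0604).

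PGI1 was lower by less, but over all times from 2 min. Its PDR1 deletion ratios were 0.002 (30 s), -0.44 (2 min), -0.36 (4 min), -0.35 (10 min) and -0.32 (20 min). In WT PGI1 went through -0.18 (30 s), -0.09 (2 min), -0.22 (4 min), 0.13 (10 min), 0.40 (20 min) and 0.48 (40 min). PGI1 in the YAP1 deletion was -0.48 (30 s), 0.03 (2 min), -0.17 (4 min), 0.17 (10 min) and 0.20 (20 min). From 2 min on the PDR1 deletion was below both other strains at each shared time. The response was -0.37 ± 0.08 in the PDR1 deletion, a 1.29-fold fall (limma, adjusted p = 0.0188), passing in 14 of 22 alternative settings; the value stayed between -0.45 and -0.29. It did not pass without the PDR1 deletion array at 2, 10 or 20 min (adjusted p = 0.0715, 0.131 and 0.102). TPI1, triose-phosphate isomerase, was at -0.72 in the PDR1 deletion at 20 min against 0.16 in WT and 0.13 in the YAP1 deletion, and at 0.64 and 0.51 at 30 s in WT and the YAP1 deletion. The late TPI1 difference of the PDR1 deletion from WT, -0.77 ± 0.21, did not pass (limma, adjusted p = 0.128). PFK1 and PFK2 encode the 2 phosphofructokinase subunits: PFK1 lay between -0.43 and 0.27 on its 11 arrays, and PFK2 went from 0.03 at 2 min to -0.59 at 20 min in the PDR1 deletion, against 0.44 in WT and 0.26 in the YAP1 deletion at 20 min.

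In lower glycolysis, from glyceraldehyde-3-phosphate to pyruvate, 8 of 11 genes were tested and none passed in any strain in the main model. The genes lowest in the PDR1 deletion relative to WT were GPM1, the phosphoglycerate mutase, and CDC19, the pyruvate kinase. GPM1 ratios were -0.07 (30 s), -0.01 (2 min), 0.29 (4 min), 0.15 (10 min), 0.52 (20 min) and 0.73 (40 min) in WT. The YAP1 deletion gave GPM1 ratios of -0.37 (30 s), 0.23 (2 min), -0.10 (4 min), 0.18 (10 min) and 0.30 (20 min). The PDR1 deletion gave -0.23 (30 s), -0.46 (2 min), -0.10 (4 min), -0.26 (10 min) and -0.44 (20 min). At 2, 4, 10 and 20 min the PDR1 deletion was below the other strains, though its difference from the YAP1 deletion at 4 min was no more than -0.002. The GPM1 response in the PDR1 deletion, -0.31, did not pass (limma, adjusted p = 0.0781), and neither did its difference from WT, -0.55 ± 0.14 (adjusted p = 0.134).

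CDC19 ratios were 0.06 (30 s), 0.14 (2 min), 0.23 (4 min), 0.09 (10 min), 0.47 (20 min) and 0.26 (40 min) in WT. Ratios of CDC19 in the YAP1 deletion were -0.13 (30 s), 0.41 (2 min), 0.02 (4 min), 0.12 (10 min) and 0.36 (20 min). Ratios of CDC19 in the PDR1 deletion were 0.01 (30 s), -0.34 (2 min), -0.32 (4 min), -0.28 (10 min) and -0.01 (20 min). The PDR1 deletion was below both other strains at all 4 times from 2 min, with differences between -0.75 and -0.35. The CDC19 difference of the PDR1 deletion from WT was -0.47 ± 0.11 (limma, adjusted p = 0.134) and from the YAP1 deletion -0.47 (adjusted p = 0.0905), and neither passed. From 2 min on TDH2, a main glyceraldehyde-3-phosphate dehydrogenase gene, lay between -0.49 and -0.10 in the PDR1 deletion and between 0.05 and 0.30 in WT (difference -0.45 ± 0.11, limma, adjusted p = 0.134). At 30 s TDH2 stood at -0.30 in the PDR1 deletion and -0.34 in WT. Its response in the PDR1 deletion, -0.27, did not pass (limma, adjusted p = 0.0589) but did in 2 of 22 alternative settings, on complete features and with the 30 s arrays included (lowest adjusted p = 0.0391).

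GPM3 and PYK2, minor forms of the mutase and the kinase, had 2 of the 3 lowest mean responses in WT. GPM3 ratios in WT were 0.09 (30 s), -0.16 (2 min), -0.04 (4 min), -0.72 (10 min), -0.07 (20 min) and -0.01 (40 min). Without Yap1 GPM3 was 0.28 (30 s), 0.33 (2 min), -0.05 (4 min), 0.22 (10 min) and 0.35 (20 min). Without Pdr1 GPM3 was 0.13 (30 s), -0.22 (4 min), -0.16 (10 min) and -0.32 (20 min), with no value at 2 min. The WT mean of GPM3 rests on the array at 10 min, the others being between -0.16 and 0.09. PYK2 in WT was -0.02 (30 s), -0.14 (2 min), 0.14 (4 min), -0.19 (10 min) and -0.18 (20 min), with no value at 40 min, and it lay between -0.16 and 0.08 in the YAP1 deletion. Without Pdr1 PYK2 was 0.42 (4 min), 0.02 (10 min) and -0.45 (20 min), with no value at 30 s and 2 min. ENO1 and ENO2, the enolases, lay between -0.39 and 0.57 and kept close: over 11 shared arrays ENO1 minus ENO2 ran from -0.275 to 0.21. PGK1, phosphoglycerate kinase, went in WT from -0.37 at 30 s to 0.54 at 40 min, a slope of 0.15 ± 0.03 per doubling of time that did not pass (limma, adjusted p = 0.0758).

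The pyruvate decarboxylases commit pyruvate to fermentation. PDC5, the minor form, was -0.15 (30 s), -0.24 (2 min), -0.21 (4 min), -0.25 (10 min) and -0.39 (20 min) in the PDR1 deletion. In WT PDC5 was 0.04 (30 s), 0.05 (2 min), -0.17 (4 min), 0.09 (10 min), -0.06 (20 min) and 0.28 (40 min). PDC5 in the YAP1 deletion was -0.42 (30 s), -0.02 (2 min), -0.20 (4 min), -0.08 (10 min) and 0.04 (20 min). All 5 PDR1 deletion values were below 0, and at each time from 2 min they were below both other strains. The PDC5 response of -0.27 ± 0.07 was at the threshold (limma, adjusted p = 0.046) and passed in 3 of 22 alternative settings, with adjusted p up to 0.205; it was lost on leaving out any single array of the 12 but 1, the PDR1 deletion array at 4 min. PDC1, the main form, lay between -0.21 and 0.17 in the PDR1 deletion and was at 0.19, -0.08 and -0.04 on its 3 other arrays. PDC6, expressed little on glucose, lay between -0.52 and 0.64 on the WT and YAP1 deletion arrays.

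**Figure D3:**
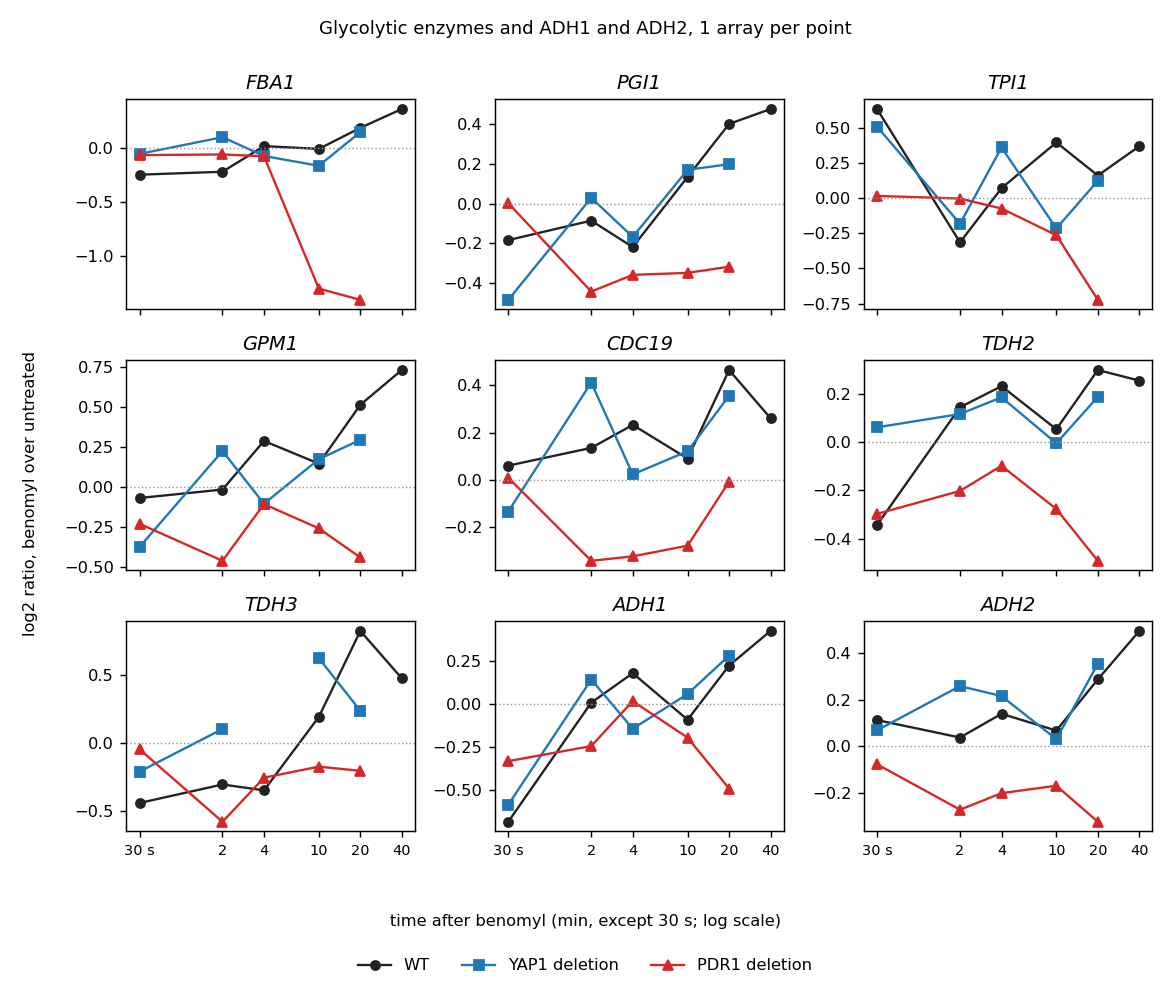
Log2 ratio (benomyl over untreated) against time (log scale) for 9 genes, 1 array per point, with symbols as for the acetate genes; the vertical scales differ between panels. FBA1 fell to -1.30 and -1.40 in the PDR1 deletion at 10 and 20 min, and PGI1, CDC19, TDH2 and ADH2 were lower there than in the other strains at each time from 2 min.

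The lower ratios in the PDR1 deletion were then compared with WT over all tested members. No member passed in the PDR1 deletion minus WT difference, where 0% of the 4324 features did in limma (0 features; 617 features and 10 members had an unadjusted p under 0.05). Nor did any pass against the YAP1 deletion, where 0.37% of features did, or in the YAP1 deletion minus WT, where 0.139% did. At an unadjusted limma p under 0.05 stood 13 members and 569 features in the former, and 2 members and 373 features in the latter. Where the PDR1 deletion array at 10 min was left out, the late differences of TDH1, ALD5 and ALD6 from WT passed (adjusted p = 0.0397, 0.0402 and 0.0163; -0.91, 1.04 and 1.58), and without the WT array at 10 min that of TDH3 did (-1.12, adjusted p = 0.0496). Both PDR1 deletion comparisons use the same 4 PDR1 deletion arrays. The median difference from WT was -0.19 over the 23 members and 0.01 over all features, and 15 of 23 members (65.2%) were below 0, against 48.2% of all features. At 10 and 20 min alone the median was -0.33 over the members and 0.02 over all features, with 18 of 23 members (78.3%) below 0 against 47.6% of all features. Without the 20 min arrays the members' median difference was -0.12 with 13 of 23 below 0. The share of all features below 0 was not counted in that fit. The lowest differences there were those of CDC19 (-0.47), GPM1 (-0.42), FBA1 (-0.41), TDH2 (-0.34) and PGI1 (-0.33). The highest were those of ADH5 (0.35) and ALD5 (0.33). None of these passed (limma, adjusted p between 0.36 and 0.598).

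By order alone, the PDR1 deletion was below WT at each of 2, 4, 10 and 20 min for 7 of 21 members with all values (33.3%), CDC19, GPM1, PGI1, TDH2, ADH1, ADH2 and PDC5, where 8.67% of all such features were. It was below the YAP1 deletion at each of those times for 8 of 20 members (40%), CDC19, GPM1, PGI1, TDH2, ADH2, PDC5, FBA1 and ADH3, where 10.2% of all such features were. Members of 1 array share its hybridisation, so these counts are not independent observations. Ribosomal protein genes, likewise abundant and compared after the data were seen, had medians of -0.07, -0.20, -0.26 and -0.35 in the PDR1 deletion at 2, 4, 10 and 20 min. In WT their medians were 0.01, -0.15, 0.02 and -0.12 at the same times, and -0.555 at 40 min, where the members' median was 0.45. In the YAP1 deletion the ribosomal protein medians were 0.03, -0.02, -0.18 and -0.01 at 2, 4, 10 and 20 min. The members' median on its array at 10 min was 0.06. The part of transcript abundance in the members' lower ratios was not tested.

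**Figure D4:**
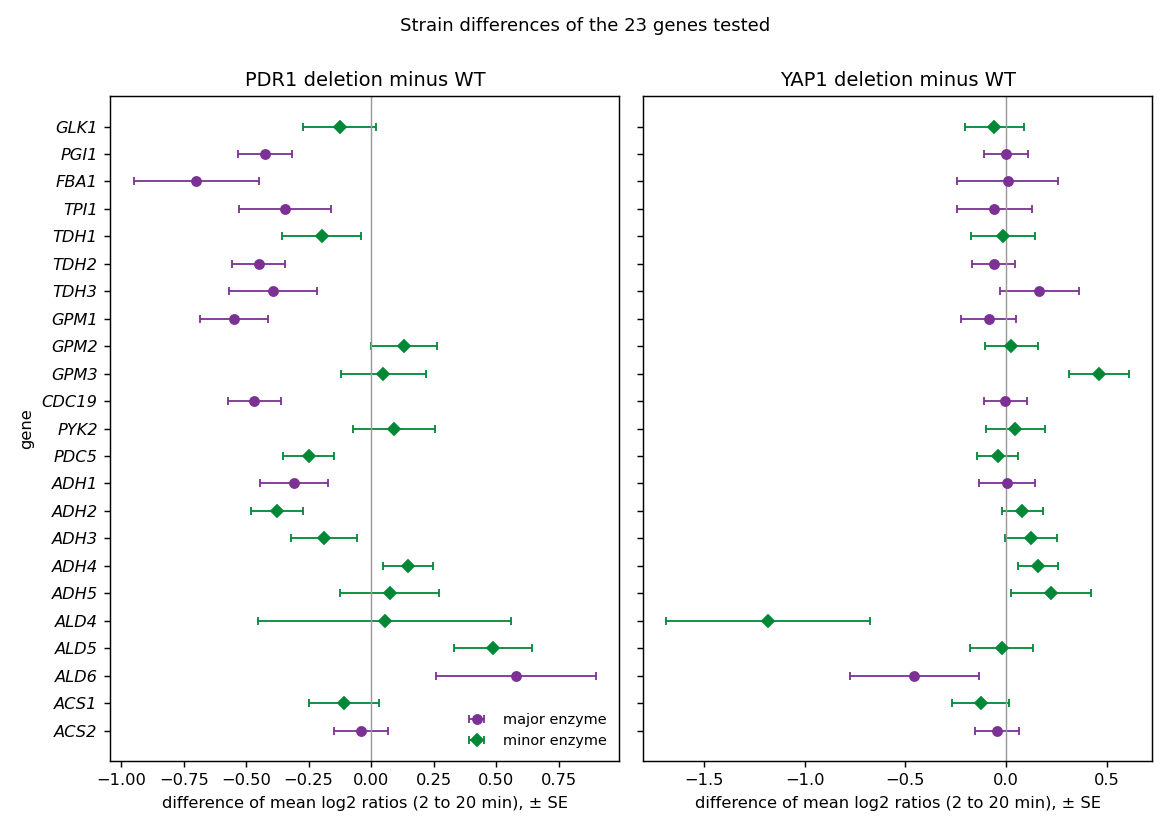
Difference between strains in the mean log2 ratio over 2 to 20 min, with its standard error from limma, for the 23 genes tested; purple circles mark major and green diamonds minor enzymes, and the horizontal scales differ. In the PDR1 deletion minus WT 9 of 10 major enzymes lie below 0, and none of the differences in either panel passed the adjusted threshold.

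The members were then split into major and minor enzymes. Among the major enzymes tested, 9 of 10 had a negative PDR1 deletion minus WT difference, with ALD6 as the exception, and a median of -0.41. Among the minor ones 6 of 13 were negative, with a median of 0.05. At 10 and 20 min alone this contrast in sign was not seen: 8 of 10 major and 10 of 13 minor enzymes were negative, with medians of -0.58 and -0.24. In WT and the YAP1 deletion the classes were closer: medians of 0.08 and 0.10 for the major and 0.13 and 0.13 for the minor enzymes. In the PDR1 deletion the response medians were -0.27 and 0.06. Among the pairs, GPM2 exceeded GPM1 on all 5 PDR1 deletion arrays and on 9 of 16 arrays in all, and at 20 min in the PDR1 deletion ADH4 exceeded ADH1 by 0.87. The classes were set from textbook roles with earlier results of these data known, and the difference between them was not tested.

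Over the WT course the minor forms ended higher than their partners at several steps. At 40 min 6 of 30 members were at least 2-fold up, ALD4, HXK1, ALD6, ADH5, TDH1 and GLK1, where 4.09% of features were, and 5 of these 6 are minor forms. At 10 and 20 min 2 of 30 and 2 of 31 were, ALD4 and ALD6, where 1.43% and 2.72% of features were. In the YAP1 deletion 1 of 30 was at 10 min, ALD4, where 0.311% of features were, and 1 of 32 at 20 min, ADH5, where 0.491% were. In the PDR1 deletion 2 of 25 were at 10 min, ALD4 and ALD6, where 0.982% were, and 3 of 25 at 20 min, with ALD5, where 1.35% were.

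Pair by pair, TDH1, the glyceraldehyde-3-phosphate dehydrogenase form tied to stress and slow growth, exceeded TDH2 by 1.02 and TDH3 by 0.80 on the WT array at 40 min, and was above TDH2 on 11 of 16 arrays. ADH5 exceeded ADH1 on 13 of 16 arrays and ALD4 exceeded ALD6 on 12 of 16, by 2.68 in WT at 40 min and by 0.86 in the PDR1 deletion at 20 min. The minor form was above on fewer than 50 percent of the shared arrays for PYK2 with CDC19 (3 of 13), ALD5 with ALD6 (4 of 16), ENO1 with ENO2 (4 of 11), PDC5 with PDC1 (2 of 8), PDC6 with PDC1 (0 of 1) and HXK1 with HXK2 (5 of 11). In the WT slope on log2 time, 24 of 29 members were above 0 with a median of 0.09 per doubling of time. Over all features 2479 of 5248 were above 0, with a median of -0.005. No member passed in limma, where 0.0953% of the features did. At an unadjusted limma p under 0.05 stood 16 members and 1087 of all features. The slope of ALD4 was 0.79 ± 0.12 (adjusted p = 0.0569), and it passed in 4 of 10 alternative settings. With the slope taken on linear minutes, which gives the 40 min array more weight, 9 of 29 members passed, HXK1, GLK1, PGI1, TDH1, GPM1, GPM2, ADH5, ALD4 and ALD6, all upwards, where 12.6% of all features passed.

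**Figure D5:**
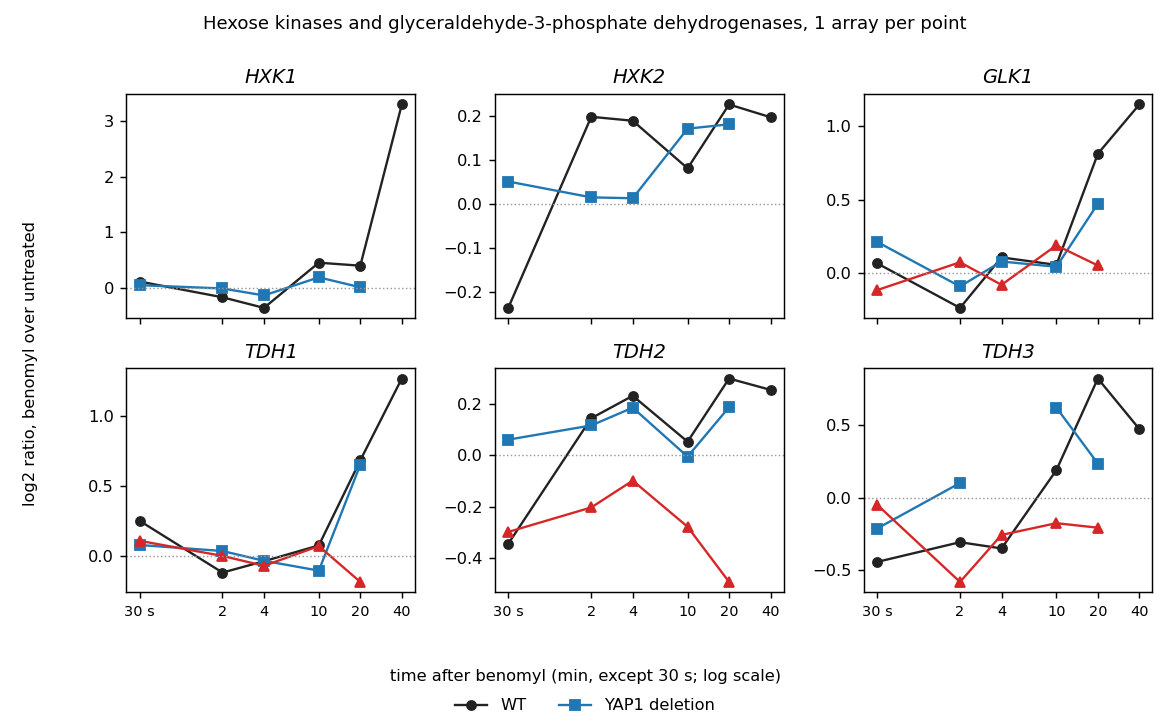
Log2 ratio (benomyl over untreated) against time (log scale) for the 3 glucose-phosphorylating enzymes and the 3 glyceraldehyde-3-phosphate dehydrogenases, 1 array per point; HXK1 and HXK2 have no PDR1 deletion values, and the vertical scales differ. HXK1, GLK1 and TDH1 are highest on the WT array at 40 min, at 3.30, 1.15 and 1.27, where HXK2 is at 0.20.

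Few genes of the neighbouring pathways passed. In the glycerol branch 1 of 3 tested rose in WT (2.61% of all features did), GPD1, the glycerol-3-phosphate dehydrogenase of osmotic stress (0.43 ± 0.11, limma, adjusted p = 0.05 after rounding, under the threshold), while GPD2 stood at 0.03. Among other alcohol and aldehyde dehydrogenases 1 of 5 tested rose in WT (again beside 2.61%), SFA1, the glutathione-dependent formaldehyde dehydrogenase (0.94 ± 0.20, limma on 11 arrays as the WT value at 10 min is missing, adjusted p = 0.0253). The YAP1 deletion minus WT difference of SFA1 at 10 and 20 min was -1.81. It rests on 1 late WT array, that at 20 min. SFA1 ratios in WT were 0.12 (30 s), 0.24 (2 min), 0.15 (4 min), 2.19 (20 min) and 1.88 (40 min), with no value at 10 min, and at 20 min they were 0.32 in the YAP1 deletion and 1.13 in the PDR1 deletion. The lowest of that list in WT was ADH7 (0.01). ADH6, an NADPH-dependent alcohol dehydrogenase left untested for missing values and chosen after its values were seen, went through 0.16 (30 s), 0.60 (2 min), 0.999 (4 min), 1.69 (10 min) and 2.45 (20 min) in the PDR1 deletion, and was at 0.84 and 1.60 in WT at 20 and 40 min and at -0.06 in the YAP1 deletion at 20 min.

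Of the regulators 1 of 5 tested fell, RAP1, whose product activates glycolytic and ribosomal protein genes (-0.30 ± 0.07 in the PDR1 deletion, limma, adjusted p = 0.035), where 2.71% of all features fell. None of the 5 changed in WT, where PDC2, the activator of pyruvate decarboxylase genes, was lowest (-0.26) and GCR2, of the Gcr1 and Gcr2 glycolytic activator, highest (-0.005). In gluconeogenesis and the glyoxylate cycle none of 6 tested changed in any comparison, and the WT responses ran from -0.10 for MDH2 to 0.29 for PYC1. None of 5 tested genes of pyruvate dehydrogenase and the mitochondrial pyruvate carrier changed, from -0.17 for LPD1 to 0.19 for MPC1 in WT, and FBP26, the 1 tested gene of fructose 2,6-bisphosphate turnover, stood at 0.01.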

How the data were processed

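Total RNA of benomyl-treated and untreated cells of the same strain was compared on 16 two-colour arrays, 1 per strain and time. The authors deposited 1 table of processed ratios, 1 column per array, which are taken here as log2 values; the log base, dyes, background correction and normalisation are not given in the sources used here. The deposited array means lie near 0. Genes were named from the platform annotation, updated through RefSeq (R64) symbols: 5628 of 6338 probes have a symbol and 710 have none. Probes of the same gene were averaged (17 genes, none of the 32), which left 6321 features.

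Tests were run in limma 3.58.1 (R 4.3.3) on the deposited log2 ratios, without a further normalisation or a floor, with Benjamini-Hochberg adjustment over all features tested. Called means an adjusted p under 0.05. The main model had strain and time (as a block) over the 12 arrays at 2, 4, 10 and 20 min and needed 3 of 4 values per strain (4324 features). A second model gave the strain difference at 10 and 20 min alone (4323 features). It was chosen with earlier results of these data known. Another model gave the WT slope on log2 time over 6 arrays (at least 5 values, 5248 features). Missing values were left out, not imputed. A fit lacking an array for a gene used the others: TDH3 lacked the YAP1 deletion value at 4 min, and GPM3 and PYK2 the PDR1 deletion value at 2 min. The steps were tested on simulated data first. Depth is not known for arrays, whose number limits the precision.

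The 32 genes, their major and minor classes and the neighbouring lists were chosen with earlier results of these data known. Genes given array by array are those called in a comparison, the 3 highest and 3 lowest responses per strain and the 3 lowest PDR1 deletion minus WT differences. Alternatives were median-subtracted or scaled arrays, complete features, a probe-order correction, no time block, the 30 s arrays included, each time or array left out, and, added after seeing the data, WT and YAP1 deletion arrays alone. Promoter and protein sequences were not analysed here.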

Additional observations from a re-analysis of the deposited data

Results flagged for a closer look

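Of 84 sets of 4 or more ratios, each a gene in a strain, 7 had 1 array far from the others by Dixon's criterion. Chance alone sets apart about 1 in 20 such sets, and here the arrays are different times and not repeats. HXK1 in WT stood at 3.30 at 40 min, with no other value above 0.45. HXK2 in WT stood at -0.24 at 30 s, below all later values. GPM3 in WT stood at -0.72 at 10 min. In the YAP1 deletion at 20 min TDH1 stood at 0.655 and ADH5 at 1.34, and ALD4 stood at 1.65 at 10 min, above the other YAP1 deletion arrays. PGI1 stood at 0.002 at 30 s in the PDR1 deletion, above the other arrays of that strain.

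Strain differences passed the test for ALD4, at -2.42 for the YAP1 deletion minus WT at 10 and 20 min, and for FBA1, at -1.43 for the PDR1 deletion minus WT at those times. The model of those times was chosen with earlier results of these data known. ADH2 was of opposite sign on every array in the PDR1 deletion and in WT, with a PDR1 deletion minus WT difference of the strain means of -0.399 over the arrays; this pattern of signs was not tested. The same held against the YAP1 deletion, with a difference of -0.395, also not tested.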

How the results depend on the processing

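No call of a member changed sign under the alternatives run. The number of members called in the WT response (1) was 0 without time as the replicate block, 2 and 0 without the arrays at 2 and 10 min, and 0 to 3 on leaving out single arrays. The count in the PDR1 deletion response (6) was 3 without the block, 2, 1 and 3 without the arrays at 4, 10 and 20 min, and 2 to 5 with single arrays left out. In the YAP1 deletion response (0) it was 0 to 1 with single arrays left out. At 10 and 20 min the YAP1 deletion minus WT count (1) was 0 with scaled arrays and 0 to 2 with single arrays left out, and the PDR1 deletion minus WT count (1) was 0 to 4. The WT slope count (0) was 1 with array medians subtracted, 1 on complete features, 9 on linear minutes and 0 to 2 with single arrays left out. The 3 strain differences over 2 to 20 min kept 0 members under each alternative run. Over all features the count ranged from 31 to 265 in the WT response (180), 0 to 20 in the YAP1 deletion response (5), 21 to 259 in the PDR1 deletion response (238), 0 to 27 in the YAP1 deletion minus WT (6), 0 to 1 in the PDR1 deletion minus WT (0), 0 to 35 in the PDR1 deletion minus YAP1 deletion (16), 31 to 72 and 3 to 64 in the late differences from WT of the YAP1 deletion (64) and the PDR1 deletion (12), and 0 to 662 in the slope (5). The causes were not tested. The low number of arrays and the lack of repeats at any time limit all tests, and no deletion strain has a 40 min array.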
